A study of Mus musculus with 14 samples.

Results

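The SLC1, SLC3, SLC6, SLC7, SLC36, SLC38 and SLC43 families of solute carriers hold most of the plasma membrane transporters of amino acids. The genes described here are the rows of the count table whose symbol belongs to these 7 families (Slc1a, Slc3a, Slc6a, Slc7a, Slc36a, Slc38a or Slc43a followed by a number) and whose reads summed to at least 20 over the 14 libraries. Of 23337 genes in the table, 62 carried such a symbol and 37 met the count minimum. The nearest gene above the minimum was Slc6a13 with 23 reads, and the nearest below it was Slc6a15 with 7. Of the 37, 36 encode members of the carrier families. The other, Slc7a6os, is named for the strand opposite Slc7a6 and is not a carrier, so its values are given apart.

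The RNA came from cardiomyocytes of Rosa-Cas9GFP mice, in which Cas9 and GFP are encoded at the Rosa locus, so that Cas9 is part of the genotype of both groups. On postnatal day 1 the mice received an adeno-associated virus, AAV-Ryr2gRNA in the group labelled KO (n = 7) and AAV-Cre in the group labelled Ctrl (n = 7). Cardiomyocytes were isolated by Langendorff perfusion at 4 weeks of age and purified by flow sorting, and poly(A) RNA was sequenced after SMART-Seq v4 amplification. The labels do not say whether the guide virus also carried Cre, nor whether the replicates were separate animals. Effects of the guide and of the virus therefore cannot be told apart, and a p-value here is set against the spread among the samples, part of which may be technical. Ryr2, the targeted gene, which encodes the calcium release channel of the sarcoplasmic reticulum, had 675 ± 71.4 CPM in Ctrl and 309 ± 48.1 CPM in KO (SD, n = 7 each), with every KO library below every Ctrl library.

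Total counts ranged from 5689335 to 13165662 per library. CPM are counts relative to the library's TMM-scaled size, and levels of different genes are compared only per length, as CPM per kb of exon. Calls are those with an adjusted p below 0.05 in the quasi-likelihood test of edgeR, adjusted over all 11170 genes that passed the expression filter, and every adjusted p comes from that test unless another is named. All log2 fold changes are KO minus Ctrl. In sorted bulk samples, fewer cells of a type and less RNA per cell cannot be told apart. Markers of heart muscle were abundant in every library (Myh6, Actn2, Tnnt2, Ryr2, Myl2, Tnni3 and Pln summed to between 63360 and 93260 CPM). Of these 7, 5 were called lower in KO, all but Myh6 and Actn2, against 13.7% of all genes tested. Ryr2 among the 5 is the targeted gene, so its fall does not describe the content of cells. RNA of other cells was present too. The 12 macrophage markers summed to between 24.9 and 117 CPM in Ctrl and between 59.4 and 427 CPM in KO, and none of them was at 0 in all libraries. Of the 8 macrophage markers tested, 2 (C1qb and Lyz2) were called higher and 0 lower, against 14.5% and 13.7% of all genes tested. The 4 libraries with library indices 7 to 10 (Ctrl replicates 4 and 5 and KO replicates 4 and 5) stood apart from the other 10 and had the highest summed macrophage, fibroblast and endothelial markers of their groups, so values within both sets are given for many of the genes.

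As background, amino acid transporters work by uptake coupled to sodium or protons, or by exchange of an amino acid inside the cell for another outside. The SLC7 light chains of the exchangers reach the plasma membrane bound to a heavy chain, and for most of them this is CD98, the product of Slc3a2. Several of these genes are known targets of ATF4, the transcription factor that is translated when the initiation factor eIF2 is phosphorylated or amino acids run short. In heart muscle, sodium-coupled carriers of glutamine, taurine and creatine are known for their part in keeping high internal stores of these solutes.

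Of the 37 genes, 28 passed the expression filter, which asked for 1.42 CPM in at least 7 libraries. In KO, 12 of these 28 were called higher (42.9%) and 2 lower (7.14%), against 14.5% higher and 13.7% lower among all 11170 genes tested. A call with a change of at least 2-fold was made for 7 higher genes, Slc7a3, Slc7a11, Slc6a9, Slc7a5, Slc1a4, Slc7a7 and Slc3a2, and for 1 lower gene, Slc36a2. Among all genes tested, 2.48% were called at least 2-fold higher and 0.564% at least 2-fold lower. The other calls were smaller, with Slc38a1, Slc1a1, Slc38a7, Slc38a10 and Slc43a2 higher and Slc7a4 lower. Every KO library lay above every Ctrl library in 8 of the 28 (background 5.84%) and below in 1 (background 4.71%). The median log2 fold change was 0.35 over the 28 and 0.01 over all genes tested. These counts and the median describe the genes that passed, and 6 of them (Slc1a4, Slc6a9, Slc7a3, Slc7a7, Slc7a8 and Slc7a11) had 7 KO libraries but fewer than 7 Ctrl libraries above the filter level. The other 9 of the 37 were too low to be tested. In the other 10 libraries alone, 12 of the genes were called higher and 1 lower, against 12.5% and 11.6% of all genes, and in indices 7 to 10 alone 11 were higher and 1 lower, against 5.84% and 6.59%. The direction differed between these sets for 6 genes, Slc7a1, Slc7a2, Slc38a2, Slc38a4, Slc43a3 and Slc6a6, none of which was called over all libraries.

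**Figure D1:**
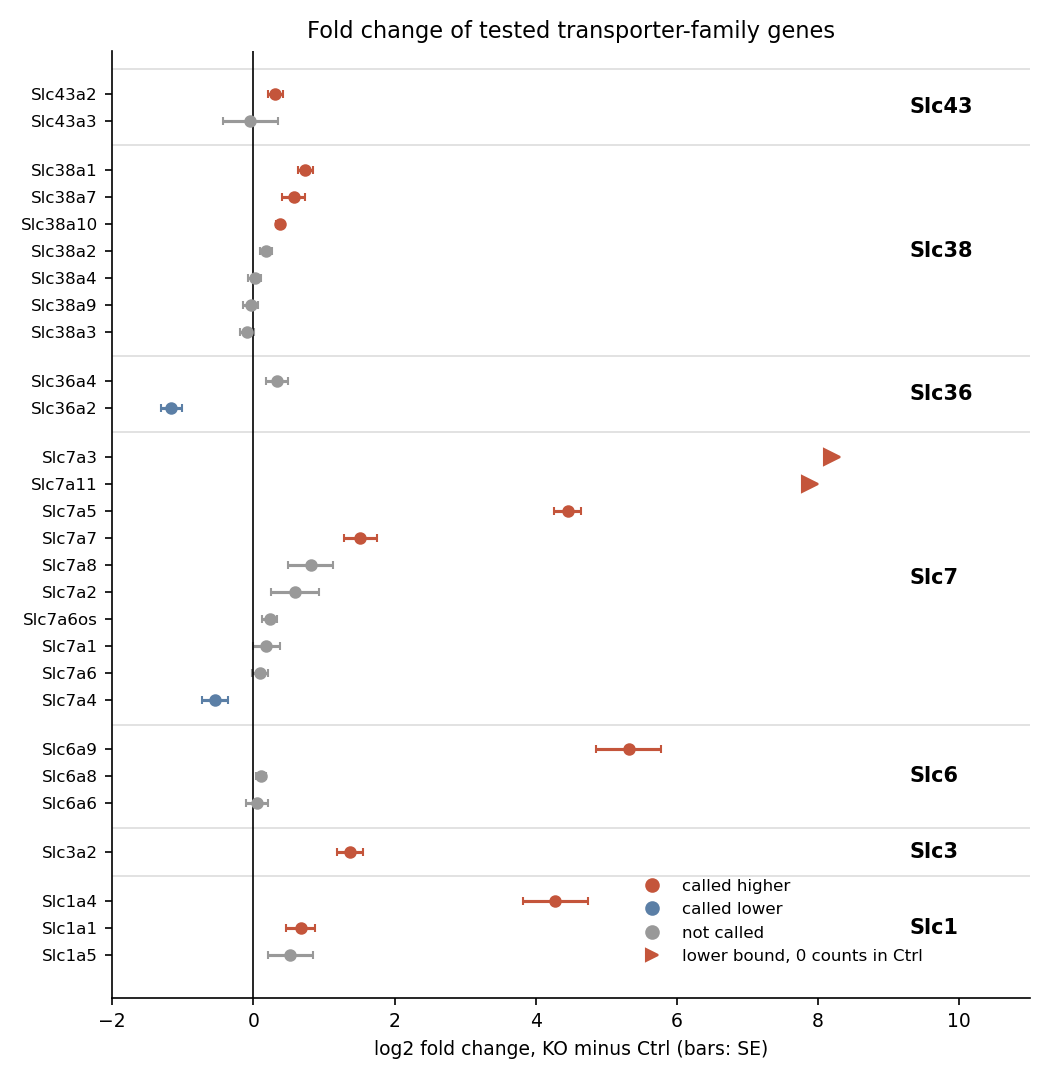
Log2 fold change (KO minus Ctrl, horizontal axis) of the 28 tested genes, grouped by family, with bars for the SE and colours for the call. Arrowheads mark the lower bounds of Slc7a3 and Slc7a11, which had 0 counts in Ctrl. The points furthest to the right are in Slc7, Slc6 and Slc1. The points of Slc38 lie between -0.09 (Slc38a3) and 0.73 (Slc38a1), and Slc36a2 is the point furthest to the left.

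The CD98 heavy chain Slc3a2 and 3 of its SLC7 light chains, Slc7a5, Slc7a7 and Slc7a11, were among the 8 genes called with at least 2-fold change. Slc7a5 encodes LAT1, the exchanger of large neutral amino acids such as leucine (chromosome 8, 121881146 to 121907686, minus strand, mm10). In Ctrl replicates 1 to 7 it stood at 5.92, 5.83, 5.99, 6.69, 7.12, 7.79 and 4.83 CPM, and in KO replicates 1 to 7 at 153, 161, 68.9, 120.3, 127, 165 and 174 CPM. The lowest KO library, replicate 3, was still far above the highest Ctrl library. Mean levels were 6.31 ± 0.972 CPM in Ctrl and 139 ± 36.6 CPM in KO (SD, n = 7 each), a log2 fold change of 4.45 (SE 0.192, adjusted p = 7.9e-11).

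Slc3a2, the CD98 heavy chain (chromosome 19, 8706882 to 8723369, minus strand), rose less. Its Ctrl libraries held 65.9, 50.4, 44.9, 46.4, 79.3, 48.2 and 50.6 CPM and its KO libraries 153, 173, 78.8, 136, 115, 135 and 210.1 CPM. Ctrl replicate 5 (79.3 CPM) lay above KO replicate 3 (78.8 CPM), so the groups just overlapped, and the other 6 KO libraries were above all Ctrl libraries. On average it had 55.1 ± 12.7 CPM in Ctrl and 143 ± 41.9 CPM in KO (SD, n = 7 each, log2 fold change 1.37, SE 0.181, adjusted p = 2.9e-05).

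The proportion of heavy to light chain transcripts differed between the groups. The light chains present here that pair with CD98 are Slc7a5, Slc7a6, Slc7a7, Slc7a8 and Slc7a11, and their summed level was 6.71 ± 0.459 CPM per kb in Ctrl and 47.8 ± 11.1 CPM per kb in KO (SD, n = 7 each). The heavy chain was at 18.6 ± 4.30 CPM per kb in Ctrl and 48.3 ± 14.2 CPM per kb in KO. In Ctrl the heavy chain was thus in excess, at 2.76 ± 0.483 times the summed light chains (range 2.23 to 3.62), while in KO the ratio was 1.01 ± 0.130 (range 0.837 to 1.20). The ranges did not overlap. Slc7a5 alone was at 0.0998 ± 0.0241 of the heavy chain in Ctrl and at 0.824 ± 0.120 in KO. These ratios are of transcripts and do not measure protein.

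**Figure D2:**
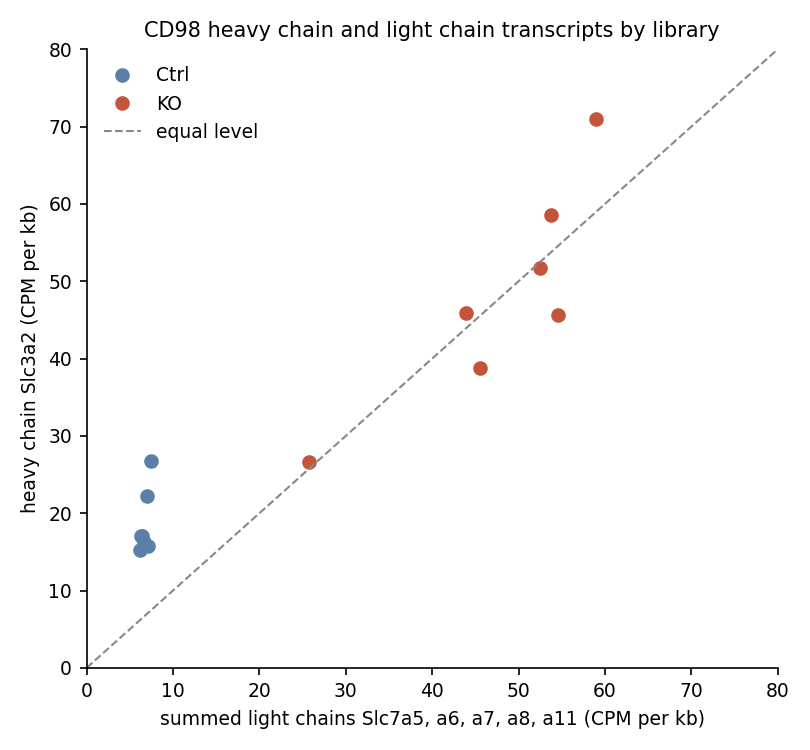
Level of the heavy chain Slc3a2 (vertical axis, CPM per kb) against the summed CD98 light chains Slc7a5, Slc7a6, Slc7a7, Slc7a8 and Slc7a11 (horizontal axis, CPM per kb), with 1 point per library. The dashed line marks equal levels. The 7 Ctrl points lie above the line at light chain sums of 6.12 to 7.41, and the 7 KO points lie around it at sums of 25.7 to 59.0.

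Slc7a3 and Slc7a11 had 0 reads in all 7 Ctrl libraries. Slc7a3 encodes CAT3, a carrier of the cationic amino acids arginine, lysine and ornithine (X chromosome, 101079221 to 101085352, minus strand). In KO replicates 1 to 7 it had 128, 113, 50, 102, 106, 167 and 262 reads, or 20.2, 15, 6.78, 16.1, 12.8, 24 and 23 CPM. Against a floor of 3 reads over the 7 Ctrl libraries together (0.0581 CPM), Slc7a3 was at least 295-fold higher in KO (adjusted p = 9.4e-07). Slc7a11 encodes xCT, which exchanges cystine for glutamate (chromosome 3, 50364936 to 50443613, minus strand). It had 132, 109, 26, 74, 128, 88 and 192 reads in KO, or 20.8, 14.4, 3.52, 11.7, 15.5, 12.6 and 16.9 CPM, and was at least 238-fold higher (adjusted p = 4.3e-06, same floor). In both genes KO replicate 3 was the lowest KO library, yet each KO library held at least 26 reads where no Ctrl library held any. The floors cover counting error only, since SMART-Seq reads carry no molecular identifiers.

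Slc7a3 belongs to a trio of cationic transporters with Slc7a1 and Slc7a2. Slc7a1, CAT1, was the member with the highest level of the 3 in Ctrl, at 4.02 ± 0.822 CPM per kb, and it stood at 4.56 ± 1.46 CPM per kb in KO (SD, n = 7 each). Its log2 fold change of 0.18 did not pass (SE 0.187, adjusted p = 0.52), and it was 0.31 outside library indices 7 to 10 and -0.21 inside them. Slc7a3 reached 7.10 ± 2.56 CPM per kb in KO, a higher mean than that of Slc7a1, by less than its own SD. Slc7a2, CAT2, was low in both groups, at 0.178 ± 0.0662 and 0.269 ± 0.118 CPM per kb (log2 fold change 0.59, adjusted p = 0.21). Its direction turned with the libraries used, at 0.98 outside library indices 7 to 10 (adjusted p = 0.018) and -0.40 inside them (adjusted p = 0.75). It was also called without KO replicate 4 (adjusted p = 0.033).

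Slc7a7 encodes y+LAT1, which exchanges cationic for neutral amino acids (chromosome 14, 54369442 to 54417702, minus strand). Its Ctrl libraries held 1.56, 2.91, 1.89, 2.36, 1.71, 2.27 and 0.863 CPM and its KO libraries 3.95, 4.37, 4.61, 6.17, 7.13, 4.17 and 8.17 CPM, with no overlap. Mean levels were 1.94 ± 0.657 CPM in Ctrl and 5.51 ± 1.66 CPM in KO (SD, n = 7 each, log2 fold change 1.51, SE 0.239, adjusted p = 1.6e-04). Macrophages also express this gene, and the macrophage marker sum had a median of 37.8 CPM in Ctrl and 80.7 CPM in KO. Of the 3 KO libraries with the most Slc7a7, replicate 7 had the lowest macrophage sum of the KO libraries (59.4 CPM) and replicates 5 and 4 the highest (272 and 427 CPM). With the macrophage sum as a covariate the log2 fold change was 1.41 (adjusted p = 7.4e-04). Its exons share 228 bp with Oxa1l on the other strand, where unstranded reads of the 2 genes cannot be told apart. Oxa1l itself was called lower, at 112.5 ± 8.425 CPM in Ctrl and 91.55 ± 10.43 CPM in KO (SD, n = 7 each, log2 fold change -0.30, adjusted p = 0.0058). The part of the shared bases in the Slc7a7 result was not tested.

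The remaining SLC7 genes changed less or did not pass. Slc7a6, y+LAT2, was at 13.8 ± 2.34 and 14.8 ± 1.73 CPM (log2 fold change 0.09, adjusted p = 0.62). Slc7a8, LAT2, the second exchanger of neutral amino acids, was at 1.75 ± 0.755 and 3.08 ± 1.48 CPM (SD, n = 7 each, log2 fold change 0.81, adjusted p = 0.066). Slc7a8 was called higher in 6 of 23 alternative fits. Among these were the replicate block (log2 fold change 0.80, adjusted p = 0.028) and a term for library indices 7 to 10 (0.78, adjusted p = 0.028). It was called within library indices 7 to 10 (1.37, adjusted p = 0.025), but not among the other 10 libraries (0.45, adjusted p = 0.34). With the macrophage sum as a covariate its log2 fold change was 0.25 (adjusted p = 0.55). In Ctrl the transcript of Slc7a5 was at 4.94 ± 2.74 times that of Slc7a8 per length, and in KO at 61.6 ± 31.0 times.

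Slc7a4, a relative of the cationic transporters with no settled substrate (chromosome 16, 17572018 to 17576671, minus strand), was lower in KO. It stood at 3.79, 3.99, 5.68, 6.56, 5.98, 7.47 and 5.52 CPM in Ctrl and at 3.95, 4.9, 4.74, 2.85, 3.75, 3.59 and 2.81 CPM in KO, and 4 KO libraries lay below all Ctrl libraries. On the log2 scale KO minus Ctrl was -0.55 (SE 0.185, adjusted p = 0.036). This call was lost in 10 of the 14 fits that left out 1 library, in all but those without Ctrl replicate 1 or 2 or KO replicate 2 or 3 (adjusted p 0.018 to 0.082 over the 14). It was also lost outside indices 7 to 10 (log2 fold change -0.39, adjusted p = 0.24) and inside them (-0.95, adjusted p = 0.056). Slc7a6os, the gene that is no carrier and lies 1.73 kb from Slc7a6, was at 8.35 ± 0.872 and 9.78 ± 1.25 CPM (log2 fold change 0.23, adjusted p = 0.12).

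**Figure D3:**
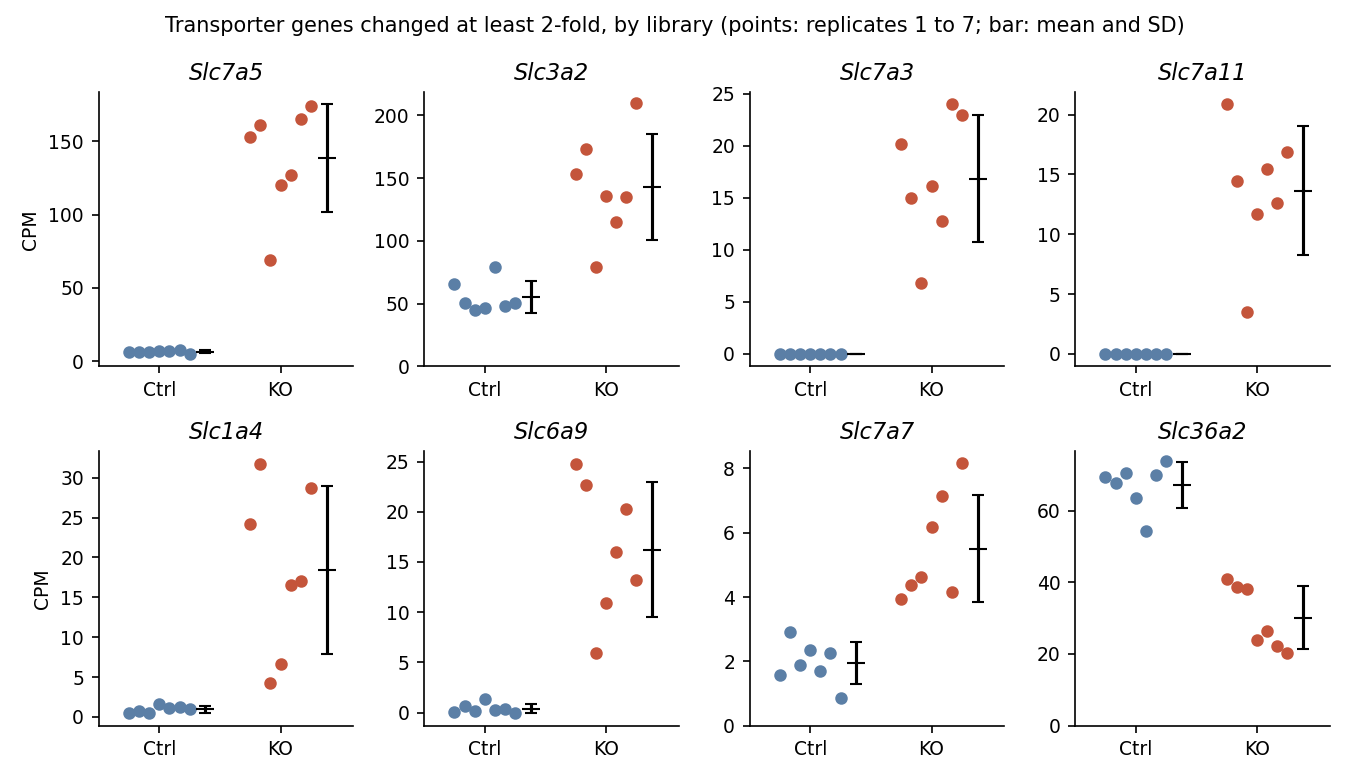
Level in CPM (vertical axes, linear, from 0) of the 8 genes called with a change of at least 2-fold, with 1 point per library for Ctrl and KO replicates 1 to 7, and the mean and SD beside them. The groups are separate in all panels but that of Slc3a2, where Ctrl replicate 5 and KO replicate 3 meet at about the same level, 79.3 and 78.8 CPM. Slc36a2 alone is lower in KO.

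Of the 2 carriers of small neutral amino acids in the SLC1 family, Slc1a4 was called in every alternative fit and Slc1a5 in 2 of them, and the difference between them was not tested. Slc1a4 encodes ASCT1, a sodium-dependent exchanger of alanine, serine and cysteine (chromosome 11, 20302180 to 20332713, minus strand). Its Ctrl libraries held 0.494, 0.767, 0.473, 1.57, 1.14, 1.3 and 1.04 CPM and its KO libraries 24.1, 31.8, 4.2, 6.65, 16.6, 17.1 and 28.7 CPM. All KO libraries were above all Ctrl libraries, but they differed by 7.56-fold among themselves, from 4.20 CPM in replicate 3 to 31.8 CPM in replicate 2. Ctrl averaged 0.969 ± 0.412 CPM and KO 18.5 ± 10.5 CPM (SD, n = 7 each, log2 fold change 4.27, SE 0.460, adjusted p = 3.9e-06). The log2 difference was 4.77 outside indices 7 to 10 and 3.07 inside them, and the difference between the sets did not pass (log2 -1.67, SE 1.13, adjusted p = 1). Slc1a5 encodes ASCT2, which also carries glutamine, and it was at 4.39 ± 1.75 and 6.32 ± 3.52 CPM (log2 fold change 0.52, SE 0.321, adjusted p = 0.25). It was called with the replicate block (0.50, adjusted p = 0.033) and with a term for library indices 7 to 10 (0.49, adjusted p = 0.019), and its direction turned with the macrophage sum as a covariate (-0.26, adjusted p = 0.28). Per length, Slc1a4 was at 0.156 ± 0.0402 of the level of Slc1a5 in Ctrl and at 2.66 ± 2.04 times it in KO, with a KO range of 0.428 to 5.62. Slc1a5 was high in library indices 7 to 10 of both groups, with 6.74 CPM there against 3.44 CPM in the other Ctrl libraries, and 11.4 against 4.29 CPM in KO.

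The glutamate carriers of the SLC1 family were low. Slc1a1, EAAT3, rose (2.53 ± 0.547 CPM in Ctrl, 4.04 ± 1.24 CPM in KO, SD, n = 7 each; log2 fold change 0.67, adjusted p = 0.021), with 5 KO libraries above all Ctrl libraries. Its call was lost within indices 7 to 10 (log2 fold change 0.22, adjusted p = 0.74) and with the macrophage sum as a covariate (0.64, adjusted p = 0.053). Slc1a2, EAAT2, did not pass the filter, with 1, 1, 0, 2, 0, 0 and 0 reads in Ctrl replicates 1 to 7 and 4, 5, 2, 10, 18, 10 and 36 reads in KO. This gene, set out by library after its values were seen, was called higher when the filter was replaced by the summed count alone (log2 fold change 3.98, adjusted p = 3.4e-04), and KO replicate 3 with 2 reads was close to Ctrl replicate 4, also with 2. Slc1a3 and Slc1a7 were not tested, with 87 and 15 reads in Ctrl and 68 and 17 in KO.

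Slc6a9 encodes GlyT1, the sodium-dependent glycine transporter (chromosome 4, 117835258 to 117869305, plus strand). It had 0.0823, 0.613, 0.158, 1.31, 0.285, 0.325 and 0 CPM in Ctrl replicates 1 to 7, a total of 20 reads, and 24.8, 22.6, 5.96, 10.9, 15.9, 20.2 and 13.2 CPM in KO, a total of 864 reads. No KO library came near the Ctrl range. On the log2 scale KO was higher by 5.32 (SE 0.457, adjusted p = 3.1e-07). The same difference was 6.20 outside indices 7 to 10 and 3.99 inside them, where the Ctrl mean was 0.798 CPM against 0.236 CPM in the other Ctrl libraries. The difference between the sets did not pass (log2 -2.18, SE 1.21, adjusted p = 1). Its exons share 46 bp with Ccdc24 on the other strand, a gene with 3 reads in Ctrl and 6 in KO.

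The abundant SLC6 genes of heart muscle did not pass. Slc6a8, the creatine transporter (X chromosome, 73673133 to 73682500, plus strand), had the highest mean level per length of the SLC6 genes, at 15.0 ± 1.66 CPM per kb in Ctrl against 13.3 ± 2.11 for Slc6a6, a gap within the SD of Slc6a6. It stood at 58.9, 63.2, 63.9, 52.7, 55.2, 53.3 and 70.8 CPM in Ctrl and 62.8, 71.1, 65.3, 68.8, 57, 58 and 67.2 CPM in KO, and the ranges overlapped (log2 fold change 0.11, SE 0.0754, adjusted p = 0.32). Slc6a6, the taurine transporter, was at 82.0 ± 13.01 and 85.1 ± 23.8 CPM (log2 fold change 0.05, SE 0.154, adjusted p = 0.84). Slc6a13, a GABA and taurine carrier, and Slc6a17, a vesicular carrier of neutral amino acids, were too low to be tested, with 17 and 40 reads in Ctrl and 6 and 32 in KO.

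The largest decrease among the 28 genes was that of Slc36a2, a proton-coupled transporter of glycine, alanine and proline known as PAT2 (chromosome 11, 55158468 to 55185077, minus strand). It stood at 69.3, 67.8, 70.6, 63.6, 54.4, 70 and 73.9 CPM in Ctrl and at 41, 38.8, 38.1, 23.9, 26.5, 22.3 and 20.2 CPM in KO, and every KO library was below every Ctrl library. Ctrl averaged 67.1 ± 6.41 CPM and KO 30.1 ± 8.85 CPM (SD, n = 7 each), or 44.9% of the Ctrl level (log2 fold change -1.16, SE 0.149, adjusted p = 2.2e-05). Both library sets showed the decrease, at -1.14 on the log2 scale outside indices 7 to 10 and -1.27 inside them. Its relative Slc36a4 did not pass, at 4.29 ± 0.864 and 5.38 ± 0.850 CPM (log2 fold change 0.33, adjusted p = 0.13). Slc36a1, which lies 19.3 kb from Slc36a2 on the other strand, was not tested, with 76 reads in Ctrl and 68 in KO.

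The SLC38 family, which includes the sodium-coupled carriers of glutamine and other neutral amino acids, made up 65.9% of the summed transporter level per length in Ctrl and 56.1% in KO, and none of its 7 tested genes was called with a change of 2-fold. Slc38a2, SNAT2, was the highest of all 36 transporters per length in both groups (chromosome 15, 96687392 to 96699698, minus strand). Its Ctrl libraries held 553, 601, 558, 596, 662, 444 and 511 CPM and its KO libraries 647, 568, 633, 566, 552, 735 and 732 CPM, with wide overlap (log2 fold change 0.18, SE 0.0892, adjusted p = 0.16). The direction differed between the sets of libraries, with 0.32 among the other 10 (adjusted p = 0.020) and -0.21 within indices 7 to 10 (adjusted p = 0.16). The difference itself had an unadjusted p of 0.0077 and an adjusted p of 1 (edgeR quasi-likelihood test of the interaction).

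Slc38a10, a widely expressed member with no settled substrate (chromosome 11, 120103951 to 120151351, minus strand), had the smallest adjusted p of the family. It stood at 157, 145, 149, 162, 145, 155 and 146 CPM in Ctrl and at 204, 200.2, 199, 208, 201, 186 and 178 CPM in KO. The libraries of each group lay close together, and although the change was small all 7 KO libraries were above all Ctrl libraries (log2 fold change 0.38, SE 0.0490, adjusted p = 2.6e-05). Slc38a1, SNAT1, rose without overlap (40.8 ± 7.49 CPM in Ctrl, 68.2 ± 7.37 CPM in KO, SD, n = 7 each; log2 fold change 0.73, SE 0.106, adjusted p = 7.0e-05). Slc38a7, the lysosomal glutamine exporter, rose from 13.6 ± 2.79 to 20.4 ± 5.26 CPM (log2 fold change 0.57, adjusted p = 0.016), a call lost with fewer libraries at folds of similar size, outside indices 7 to 10 (log2 fold change 0.52, adjusted p = 0.059) and inside them (0.66, adjusted p = 0.081).

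The other tested SLC38 genes did not pass. Slc38a3, the system N carrier SNAT3, was at 65.0 ± 6.88 and 60.8 ± 10.7 CPM (log2 fold change -0.09, adjusted p = 0.56). Slc38a4 was at 47.0 ± 4.55 and 47.7 ± 6.86 CPM (0.02, adjusted p = 0.91), and Slc38a9, the lysosomal arginine sensor of the mTORC1 pathway, at 18.8 ± 3.21 and 18.2 ± 1.66 CPM (-0.04, adjusted p = 0.82). Slc38a6 and Slc38a11 were not tested, with 54 and 23 reads in Ctrl and 54 and 21 in KO. Slc38a1, Slc38a2 and Slc38a4 are neighbours on chromosome 15, with gaps of 44.5 kb and 295 kb between them, and of these 3 genes Slc38a1 alone was called.

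In the SLC43 family Slc43a2, LAT4, a carrier of large neutral amino acids (chromosome 11, 75531694 to 75577572, plus strand), stood at 15.3, 20.7, 15.4, 13.1, 16.8, 13.6 and 15.4 CPM in Ctrl and at 20.7, 21, 15.7, 16.9, 20.1, 19.8 and 22.2 CPM in KO. The ranges overlapped, and 2 KO libraries were above all Ctrl libraries (log2 fold change 0.31, SE 0.107, adjusted p = 0.040). This call was lost in 10 of the 14 fits without 1 library, in all but those without Ctrl replicate 2 or 5 or KO replicate 3 or 4 (adjusted p 0.0085 to 0.080 over the 14), without the expression filter (log2 fold change 0.30, adjusted p = 0.056), and outside and inside indices 7 to 10 (0.31 and 0.28, adjusted p = 0.096 and 0.41), while the fold stayed near that over all libraries. Slc43a3, which carries nucleobases and not amino acids (chromosome 2, 84936646 to 84958509, plus strand), had the highest mean level per length of the family. It stood at 12.8, 11, 10.4, 23.4, 28.3, 19.5 and 5.01 CPM in Ctrl and at 8.68, 9.4, 10.2, 32.3, 29.6, 10.2 and 7.64 CPM in KO (log2 fold change -0.05, SE 0.390, adjusted p = 0.95). Its values followed the library set and not the group, with means of 25.8 and 30.9 CPM in indices 7 to 10 of Ctrl and KO, and of 11.8 and 9.22 CPM in the other libraries. Endothelial markers moved with it, with sums of 625 to 848 CPM in indices 7 to 10 and 237 to 528 CPM elsewhere; their part in the result was not tested. With the macrophage sum as a covariate Slc43a3 was called lower (log2 fold change -1.06, adjusted p = 9.1e-04). Slc43a1 was not tested, with 15 reads in Ctrl and 25 in KO.

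**Figure D4:**
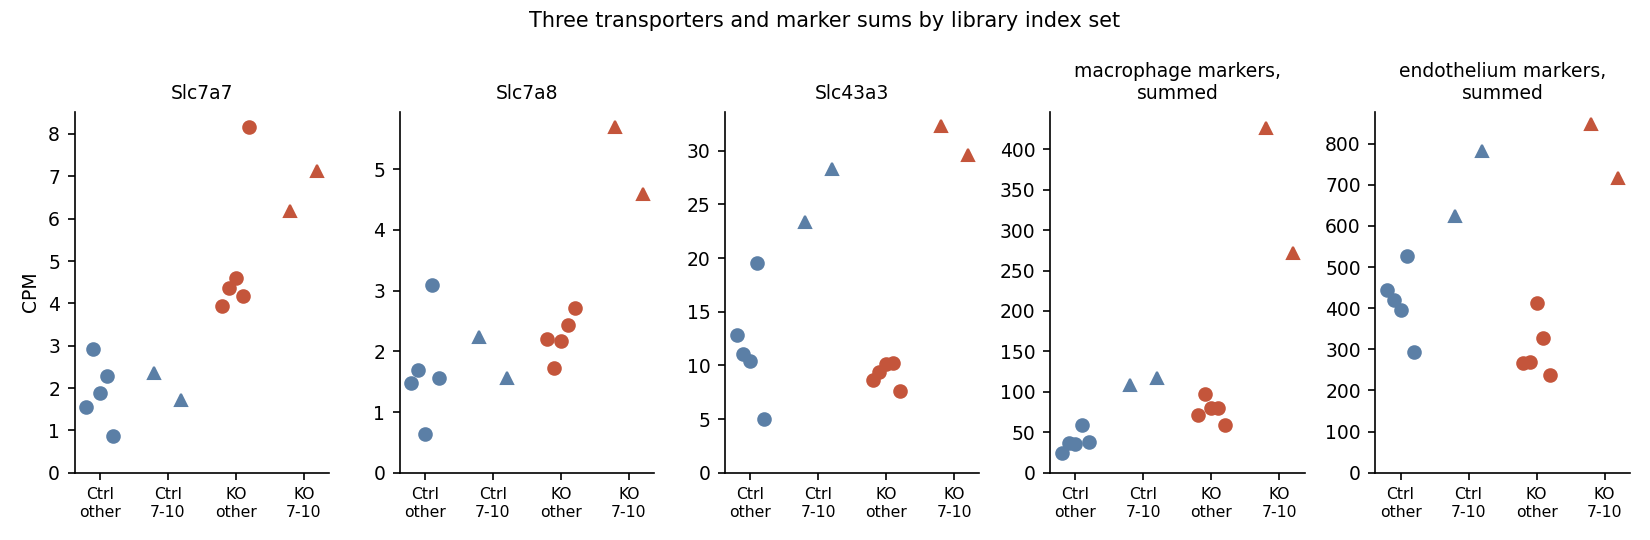
Level in CPM (vertical axes, from 0) of Slc7a7, Slc7a8 and Slc43a3 and the summed macrophage and endothelial markers, by group (blue Ctrl, red KO) and library index set (triangles for indices 7 to 10, 2 libraries per group; circles for the other 5 per group). Slc43a3 and the endothelial sum are high in indices 7 to 10 of both groups, whereas Slc7a7 is higher in KO than in Ctrl in both sets.

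Per length, the 36 transporters together had a summed level of 298 ± 18.6 CPM per kb in Ctrl and 402 ± 37.4 CPM per kb in KO (SD, n = 7 each), and the ranges (271 to 330 and 344 to 453) did not overlap. The 36 include Slc3a2, which is the heavy chain partner of light chains that are also counted, at 18.6 CPM per kb in Ctrl and 48.3 in KO. Slc38a2 alone took 40.5 ± 2.80% of this sum in Ctrl and 34.1 ± 3.38% in KO. The next 4 in Ctrl were Slc38a10 (28.0 CPM per kb), Slc36a2 (27.6), Slc38a3 (23.8) and Slc3a2 (18.6), of which Slc38a10 and Slc36a2 did not differ beyond their SD (1.25 and 2.64). In KO the order after Slc38a2 was Slc3a2 (48.3 CPM per kb), Slc7a5 (39.4), Slc38a10 (36.3) and Slc38a3 (22.3), and the SDs of Slc3a2 and Slc7a5 (14.2 and 10.4) were larger than the gaps between these first 3. Slc7a5 went from the 17th to the 3rd place of the 36, and from 0.605 ± 0.106% to 9.69 ± 1.92% of the summed level.

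By family, the SLC7 carriers went from 4.24 ± 0.286% to 15.0 ± 2.51% of the summed level and the SLC3 gene from 6.22 ± 1.12% to 11.9 ± 2.65%. The SLC38 share was 65.9 ± 1.64% in Ctrl and 56.1 ± 4.27% in KO, and the SLC36 share 10.2 ± 1.37% and 3.89 ± 1.06%. By substrate, carriers of large neutral amino acids (Slc7a5, Slc7a8, Slc43a1 and Slc43a2) were at 4.51 ± 0.473 CPM per kb in Ctrl and 43.1 ± 10.6 in KO, and cationic carriers (Slc7a1, Slc7a2 and Slc7a3) at 4.20 ± 0.815 and 11.9 ± 3.56. The 5 glutamine carriers of system A or N type (Slc38a1, Slc38a2, Slc38a3, Slc38a4 and Slc38a7) were at 166 ± 15.4 and 186 ± 20.5 CPM per kb. No test was made on these sums, since the genes were chosen with results of these data known, and a share falls when other members rise.

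**Figure D5:**
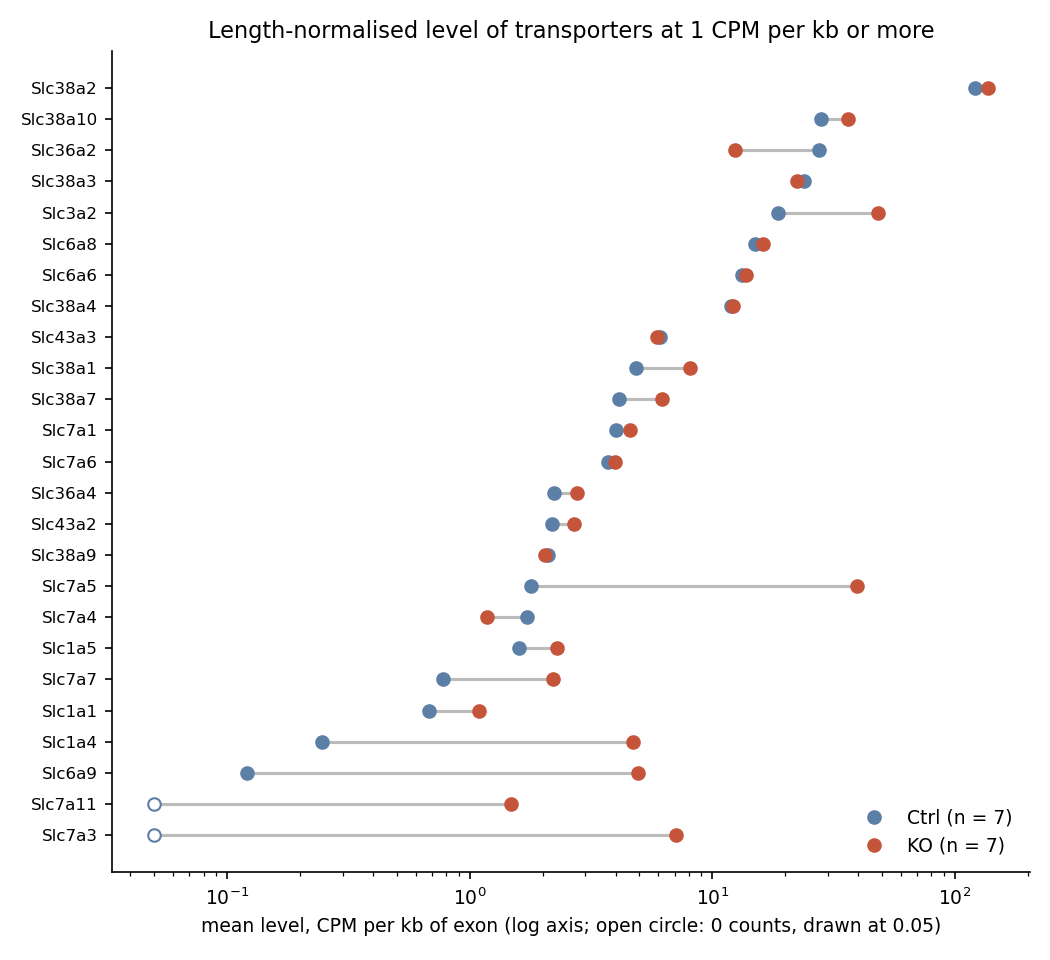
Mean level in CPM per kb of exon (horizontal axis, logarithmic) in Ctrl and KO (n = 7 each) of the transporters with a mean of at least 1 CPM per kb in either group, ordered by the Ctrl level. Grey lines join the 2 groups, and open circles stand for 0 counts. Long lines belong to genes that were low in Ctrl, such as Slc7a5 and Slc1a4, while Slc3a2 (18.6 to 48.3 CPM per kb) started among the high ones and Slc36a2 (27.6 to 12.4) runs the other way.

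The KO libraries differed from each other in how much the 7 large increases were present. KO replicate 3 was the lowest KO library for 6 of the 7 genes (all but Slc7a7), and KO replicate 7 the highest for 3 of them (Slc3a2, Slc7a5 and Slc7a7). The spread between the lowest and highest KO library was 2.07-fold for Slc7a7, 2.53-fold for Slc7a5, 2.67-fold for Slc3a2, 3.54-fold for Slc7a3, 4.16-fold for Slc6a9, 5.91-fold for Slc7a11 and 7.56-fold for Slc1a4. Trib3, a target of ATF4 chosen after its values were seen, was also low in KO replicate 3 (18.03 CPM) and in replicate 4 (16.1 CPM), against 44.1 to 190 CPM in the other KO libraries. Atf4 itself was lowest in KO replicate 5 (64.9 CPM), with 81.5 CPM in replicate 3, 81.5 CPM in replicate 4 and 162 CPM in replicate 7. Ryr2 was lowest in KO replicate 4 (225 CPM) and highest in replicate 1 (371 CPM), with 301 CPM in replicate 3 and 272 CPM in replicate 7. These are descriptions of 7 libraries and carry no test.

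Promoter sequences are shown for Slc7a11, Slc1a4 and Slc7a7 because, of the 26 genes with a promoter in the reference table, these 3 held the core of a C/EBP-ATF response element. RefSeq promoters (GRCm38.p6, which is mm10, 250 bases before to 50 bases from each start) were matched by symbol for these 26 of the 37 genes. Slc7a5, Slc7a3 and Slc38a1, called higher, and Slc36a2 and Slc7a4, called lower, had no promoter in the reference table and were not searched. No gene called lower was therefore part of the counts below. The element, which ATF4 binds together with C/EBP proteins, was searched as TGATGNAA on both strands (TTNCATCA as read on the other strand). It was found in 3 of 9 genes called higher that had a promoter in the table, in 0 of 8 tested genes that were not called and in 0 of 9 genes not tested. Of all 27025 genes with a promoter, 4.51% held it in at least 1 promoter, and of all 32851 promoters 3.97% held it. Genes with more RefSeq starts had more promoters searched. Below, bases from 150 before the start to 10 after it are given 5′ to 3′ on the gene's strand, with the element in capitals.
Slc7a11 (chr3:50443604-50443763, minus strand): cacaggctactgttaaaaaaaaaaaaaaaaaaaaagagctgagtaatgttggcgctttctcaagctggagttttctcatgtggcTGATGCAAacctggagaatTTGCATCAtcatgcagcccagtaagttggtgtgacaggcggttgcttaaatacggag
Slc1a4 (chr11:20332704-20332863, minus strand): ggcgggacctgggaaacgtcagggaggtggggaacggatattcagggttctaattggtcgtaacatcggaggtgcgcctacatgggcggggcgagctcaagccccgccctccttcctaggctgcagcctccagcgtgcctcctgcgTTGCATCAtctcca
Slc7a7 (chr14:54417935-54418094, minus strand): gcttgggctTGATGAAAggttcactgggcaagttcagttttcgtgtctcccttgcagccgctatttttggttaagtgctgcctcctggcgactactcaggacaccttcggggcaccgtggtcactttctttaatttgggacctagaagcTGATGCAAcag
The Slc7a11 window holds the element in both orientations, with the first base of the matches 66 and 47 bases before the start. In Slc1a4 a single match begins 4 bases before the start and runs over it. Slc7a7 has several RefSeq starts, and some of their promoters hold no match. The 2 matches shown begin 141 bases and 1 base before a RefSeq start that lies upstream of the gene's first base in the count table. The second of them is 243 bases before that first base. A match is a description of the letters and not of binding.

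The core of the antioxidant response element, TGACNNNGC (GCNNNGTCA on the other strand), bound by NRF2, was searched in the same way. It was in 1 of the 9 genes called higher (Slc6a9), in 3 of the 8 not called (Slc38a2, Slc7a1 and Slc7a6) and in 3 of the 9 not tested (Slc36a1, Slc43a1 and Slc6a13), against 14% of all genes. It was not in the Slc7a11 window of 300 bases.

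Genes of other lists on amino acid supply are given beside the shares of all 11170 genes, of which 14.5% were called higher and 13.7% lower. Of 25 tested genes of the ATF4 response, 20 were called higher and 0 lower in the edgeR test, with a median log2 fold change of 2.36. At an unadjusted p under 0.05, 1 was lower (Vldlr, log2 fold change -0.17). Those with the smallest adjusted p were Phgdh and Mthfd2, enzymes of serine and folate metabolism, with log2 fold changes of 7.57 and 6.47. Of the 4 eIF2 alpha kinases, Eif2ak3, the kinase of the endoplasmic reticulum, was called higher (6.69 ± 1.73 CPM in Ctrl and 10.9 ± 2.02 in KO, log2 fold change 0.72), and Eif2ak4, the kinase that senses uncharged tRNA, was at 9.03 ± 1.57 and 8.78 ± 1.54 CPM (-0.05). Some of the ATF4 list was named in earlier results of these data, so its count is no independent support.

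The 15 tested amino acid carriers of other families had a median log2 fold change of -0.20. In the edgeR test 0 of them were called higher (also 0 at an unadjusted p under 0.05) and 4 lower, against 14.5% and 13.7% of all genes tested. The 4 were the mitochondrial aspartate-glutamate carriers Slc25a12 (log2 fold change -0.27) and Slc25a13 (-0.27), the aromatic amino acid carrier Slc16a10 (-0.52) and the anion exchanger Slc26a6 (-0.63). In the list of genes that link amino acids to mTORC1, 26 were tested, 1 was higher and 3 were lower, shares no larger than those of all genes. The sestrin Sesn2 was counted in the ATF4 list and not in this one, and is named after its values were seen. It had 7.12 ± 1.29 CPM in Ctrl and 35.9 ± 29.9 CPM in KO (log2 fold change 2.36, adjusted p = 5.2e-04), without overlap. Sesn1, which is in this list, was not called (-0.24). Sesn3, a sestrin, rose (2.52 ± 0.784 CPM in Ctrl, 4.49 ± 0.544 CPM in KO, SD, n = 7 each; log2 fold change 0.84). Rragd, a Rag GTPase of the lysosomal surface, fell from 203 ± 22.8 to 118 ± 15.5 CPM (-0.78), and Lamtor3 (-0.24) and Gatsl2 (-0.49) were the other lower genes. Of 6 tested regulators or partners of transporters, Arrdc3, an arrestin domain protein (0.94), Txnip, a thioredoxin-binding relative of it (0.69), and Nedd4, a ubiquitin ligase (0.17), were higher and Bsg, the chaperone of lactate carriers (-0.41), was lower.

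The 25 symbols below the count minimum had between 0 and 7 reads over the 14 libraries. Slc6a15, Slc6a14 and Slc6a20b had 7, 6 and 5 reads, all of them in KO, and the heavy chain Slc3a1 had 3, all in Ctrl. At this depth such counts do not show a difference.

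The authors' deposited table compares the same groups, and there 13 of the 37 genes had an adjusted p under 0.05 with a positive log2 fold change and 2 with a negative one. No share of all genes in that table is given here, so these counts are not read as a result about the 37 genes. None of the 14 genes called here had the opposite sign in it. Slc1a2, untested here, had a log2 fold change of 4.22 in the authors' deposited table (adjusted p = 3.3e-05 there).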

How the data were processed

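Poly(A) RNA of sorted mouse cardiomyocytes was measured in 14 libraries, 7 labelled KO and 7 labelled Ctrl. The values analysed were raw read counts per gene as the authors deposited them. STAR, featureCounts, DESeq2, DESeq and the build mm10 are named in the submitters' processing notes. Tool versions, the annotation and any strand setting: not given in the sources used here. Per the file headers, a deposited results table by the authors lists for each gene a mean signal, a log2 fold change, a Wald score and p-values; its log2 fold changes and adjusted p were copied for 37 genes. No column was left unmapped (0).

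From the counts, edgeR 4.0.16 (R 4.3.3) was fitted with filterByExpr, TMM scaling and the group as the only term. The test was quasi-likelihood, two-sided, with Benjamini-Hochberg adjustment over 11170 genes. SE is the absolute log2 fold change divided by the square root of F. CPM per kb used the exon lengths in the file. The script was tested on simulated data. The replicate numbers that the titles share were not used to pair the samples in the main fit, and whether they mark pairs is not settled. Same-numbered libraries correlated at 0.0614 to 0.533 in their deviations from the group mean, over 0.1 in 6 of 7 pairs. Only 1 of the 7 Ctrl libraries correlated best with the KO library of its own number. Alternatives were DESeq2 1.42.0, its size factors, no filter, no TMM, a replicate block, a term for library indices 7 to 10, each library set alone, a macrophage covariate and each library left out. Values in every library are given for genes at 0 in all Ctrl libraries, genes called with at least 2-fold change, and, in each family, the called gene with the smallest adjusted p in each direction and the gene with the highest level per length; of the other lists at most 4 genes, or those needed to name a small count. The genes and lists were chosen with earlier results of these data known. Fibroblast, pericyte, Schwann and erythroid markers served only to describe the samples: 0 of 7 tested fibroblast and 0 of 8 tested endothelial markers were called, 2 pericyte or smooth muscle markers were higher and 1 lower, the 1 tested Schwann or neural marker was not called, and no erythroid marker was tested. Some table symbols are older ones (Gatsl2, Gatsl3, Pqlc2).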

Additional observations from a re-analysis of the deposited data

How the results depend on the processing

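Of the 14 called genes, 10 kept direction and call in all 23 alternatives: Slc1a4, Slc3a2, Slc36a2, Slc38a1, Slc38a10, Slc6a9, Slc7a3, Slc7a5, Slc7a7 and Slc7a11. The other 4 (Slc1a1, Slc38a7, Slc43a2 and Slc7a4) lost the call in at least 1, and none turned its sign. Of the 14 not called, 8 were called in at least 1 alternative. Leaving out each library in turn gave 11 to 13 genes higher and 1 to 2 lower, the gene that left the lower count being Slc7a4. With library size in place of TMM, outside indices 7 to 10 and inside them alike, 1 gene was lower (Slc36a2). Among all genes, library size alone gave 3064 higher and 852 lower calls, against 1621 and 1528 with TMM, and moved the median log2 fold change of all genes from 0.01 to 0.15, the cause of which was not tested. Within indices 7 to 10 (fewer libraries) the calls were 689 higher and 777 lower. With the replicate block 14 of the genes were higher and 2 lower, and over all genes 1922 and 1848; 1 of 7 Ctrl libraries correlated best with the KO library of its own number. The test of a different effect in library indices 7 to 10 called 0 of the 28 genes with edgeR, also with DESeq2 size factors and with each library left out (0 to 0), and 1 gene (Slc38a2) had an unadjusted p under 0.05. Over all 11170 genes the edgeR test also called 0, and 339 had an unadjusted p under 0.05, so the 0 is not particular to the 28 genes. For Slc7a3 and Slc7a11, with 0 reads in Ctrl, the test cannot decide (SE 790 and 3.86). With a floor of 3 reads per Ctrl library in place of 3 over the group, the bounds were at least 42.1-fold for Slc7a3 and at least 34.0-fold for Slc7a11. Counts of 0 in Ctrl limit these folds to bounds, and 9 of the 37 genes were too low to be tested.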
